A study of Mus musculus with 32 samples.

Results

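Aminoacyl-tRNA synthetases were examined in whole mouse hearts carrying mutations of CHCHD10 (C10), a protein of the mitochondrial intermembrane space, on 2 OMA1 backgrounds. The class was defined by a list of 36 gene symbols, 20 cytosolic enzymes and 16 enzymes imported into mitochondria, whose symbols carry the suffix 2. Of these, 34 were measured, 18 cytosolic and 16 mitochondrial, among 19505 genes on the array. Aars and Dars were not matched to a row and were not analysed here, and methionyl-tRNA synthetase is listed as Mars1. Each measured enzyme had 1 probe set, so no choice among probe sets was needed.

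Total RNA from 32 hearts was hybridised to 1-colour Clariom S arrays, 1 animal per array and 4 animals per group. At 14 weeks the groups were C10 G58R OMA1-/-, C10 G58R OMA1+/-, C10 WT OMA1-/- and C10 WT OMA1+/-, and at 20 weeks the same 4 with C10 S59L in place of C10 G58R. Both mutations are knock-in alleles carried over a wild-type allele, OMA1 is an inner membrane protease that stress switches on, every control lacked at least 1 copy of it, and no animal was treated. Groups held 2 males and 2 females, except C10 G58R OMA1+/- with 3 females and C10 WT OMA1-/- at 14 weeks with 3 males. Most pups of the C10 G58R OMA1-/- genotype die early according to the study, so its hearts came from the few animals that lived on. The 2 mutations were studied at different ages and against different controls, so that mutation and age cannot be told apart in any comparison between them.

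An aminoacyl-tRNA synthetase joins 1 amino acid to the tRNAs that read its codons, and so supplies the ribosome with its substrate. Animal cells keep separate sets of these enzymes for the cytosol and for the mitochondrial matrix, all encoded in the nucleus, with the exception of genes such as Gars and Kars whose products serve both compartments. Part of the cytosolic set is bound into the multisynthetase complex with the scaffold proteins AIMP1, AIMP2 and AIMP3. Many cytosolic synthetase genes are known targets of ATF4, the transcription factor of the integrated stress response (ISR), and OMA1 can pass mitochondrial stress to this response through the protein DELE1.

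Log2 levels are given below as deposited, in the order of replicates 1 to 4, and levels of different genes are not compared because each rests on its own probes. The array medians lay between 6.54 and 6.75, and no 2 arrays held identical values. The background was set at a log2 level of 6.59, from receptor genes that hearts should not express, and 27 of the 34 enzymes lay above it on every array. Ears2 and Pars2 each lay below it on 31 of 32 arrays, Wars2 on 28 and Aars2 on 27. The probe set of Oma1 was at 9.83 to 10.14 in C10 G58R OMA1-/- hearts against 10.28 to 10.64 in C10 G58R OMA1+/- hearts, and none of the 4 such differences passed the test (adjusted p between 0.175 and 0.804, limma). The sources used here do not say whether these probes fall in the deleted stretch, so the level checks no label. Cardiomyocyte markers averaged 17.47 to 18.48 on all arrays. Adipocyte markers averaged above 9.5 in 7 hearts, namely replicates 1, 2 and 3 of C10 WT OMA1+/- at 14 weeks, replicate 1 of C10 G58R OMA1-/-, replicate 1 of C10 S59L OMA1+/- and replicates 1 and 2 of C10 S59L OMA1-/-. In bulk tissue, fewer cells of a type and less RNA per cell cannot be told apart.

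The cytosolic set separated every mutant heart from every C10 WT heart. With G58R on both OMA1 backgrounds and with S59L on OMA1+/-, the mitochondrial set lay above the controls of the same background by a smaller step. In C10 S59L OMA1-/- hearts it overlapped the controls and did not lie above them on average. Set means are given on the log2 scale relative to the C10 WT OMA1+/- hearts of the same age, as a description with no test. The cytosolic mean was 2.12, 1.76, 1.91 and 2.05 in C10 G58R OMA1-/- hearts against 1.14, 1.34, 1.41 and 0.96 in C10 G58R OMA1+/- hearts. At 20 weeks it was 1.24, 0.37, 0.82 and 1.56 in C10 S59L OMA1-/- hearts against 1.85, 1.88, 2.19 and 2.09 in C10 S59L OMA1+/- hearts. Loss of OMA1 thus went with a higher cytosolic mean in all G58R hearts and a lower one in all S59L hearts, with no overlap between the OMA1-/- and OMA1+/- arrays of either mutation. All 16 C10 WT hearts lay between -0.22 and 0.27. The mitochondrial mean averaged 0.49 ± 0.10 in C10 G58R OMA1-/- and 0.48 ± 0.11 in C10 G58R OMA1+/- hearts (SD, n = 4 each). It averaged -0.08 ± 0.35 in C10 S59L OMA1-/- hearts, against -0.05 ± 0.19 in C10 WT OMA1-/- hearts at 20 weeks, and 0.25 ± 0.11 in C10 S59L OMA1+/- hearts (SD, n = 4 each). Over all genes with a mean above the background, the median change with G58R was 0.22 on OMA1-/- and 0.15 on OMA1+/-. With S59L it was 0.20 on OMA1-/- and 0.27 on OMA1+/-. The median of the 16 mitochondrial members with S59L on OMA1+/- was 0.28, near that of these genes. The 16 include Ears2, Pars2, Wars2 and Aars2, mostly below the background, so that the 2 medians rest on genes filtered in different ways.

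**Figure D1:**
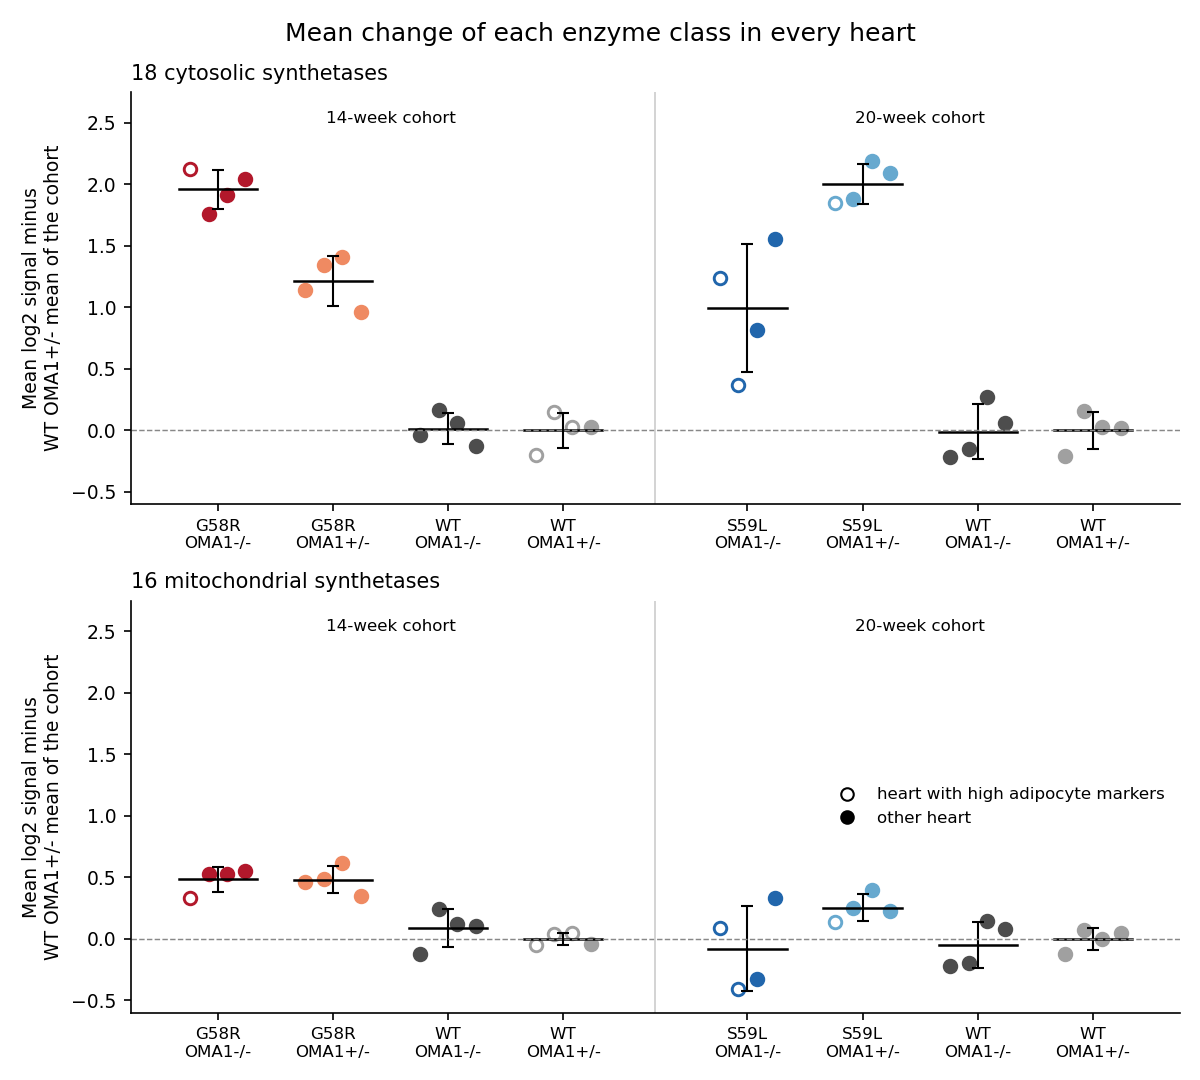
Mean log2 level of the 18 cytosolic and the 16 mitochondrial synthetases in each heart, relative to the C10 WT OMA1+/- hearts of the same age, with 1 point per array, lines at group means, bars of 1 SD (n = 4) and open points for the 7 hearts with high adipocyte markers. All mutant hearts lie above all C10 WT hearts in the cytosolic set, from 0.37 in C10 S59L OMA1-/- replicate 2 upward, while in the mitochondrial set the C10 S59L OMA1-/- hearts overlap their controls.

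Promoters of the members were read to show what the co-moving genes carry near their starts. The motif TGATGNAA, the form of the C/EBP-ATF response element to which ATF4 binds, was searched on both strands of 300 bases per gene, 250 before and 50 after the RefSeq start (build GRCm38.p6). It occurred in 3.97% of 32851 windows of this length. Of 11 cytosolic members with a window 4 held it, and of 14 mitochondrial members with a window 0 did. A match is a description of the letters and says nothing of binding, and the other members had no window in the table used. The windows that held a match belong to Gars (chr6:55037751-55038050, plus strand), Iars (chr13:49681880-49682179, plus strand), Tars (chr15:11399609-11399908, minus strand) and Yars (chr4:129189653-129189952, plus strand). The match, in capitals, was on the opposite strand in Gars, Iars and Tars, where it reads as its reverse complement, and on the window strand in Yars.
Gars: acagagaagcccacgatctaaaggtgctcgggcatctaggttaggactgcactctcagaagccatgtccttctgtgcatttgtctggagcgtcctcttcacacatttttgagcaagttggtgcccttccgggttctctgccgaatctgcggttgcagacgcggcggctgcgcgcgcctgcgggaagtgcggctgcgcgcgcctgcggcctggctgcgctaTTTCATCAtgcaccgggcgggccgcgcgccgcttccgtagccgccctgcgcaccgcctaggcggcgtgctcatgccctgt
Iars: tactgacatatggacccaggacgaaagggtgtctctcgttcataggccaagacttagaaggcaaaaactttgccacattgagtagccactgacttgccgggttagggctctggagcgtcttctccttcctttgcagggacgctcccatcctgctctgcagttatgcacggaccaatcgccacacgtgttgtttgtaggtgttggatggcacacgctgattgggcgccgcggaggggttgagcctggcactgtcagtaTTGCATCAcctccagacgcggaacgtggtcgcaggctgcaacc
Tars: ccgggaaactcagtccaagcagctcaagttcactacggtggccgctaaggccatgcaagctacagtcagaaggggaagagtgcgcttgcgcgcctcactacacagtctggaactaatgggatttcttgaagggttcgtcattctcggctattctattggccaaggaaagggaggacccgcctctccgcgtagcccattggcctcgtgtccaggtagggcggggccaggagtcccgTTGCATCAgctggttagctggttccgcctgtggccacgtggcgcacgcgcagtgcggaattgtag
Yars: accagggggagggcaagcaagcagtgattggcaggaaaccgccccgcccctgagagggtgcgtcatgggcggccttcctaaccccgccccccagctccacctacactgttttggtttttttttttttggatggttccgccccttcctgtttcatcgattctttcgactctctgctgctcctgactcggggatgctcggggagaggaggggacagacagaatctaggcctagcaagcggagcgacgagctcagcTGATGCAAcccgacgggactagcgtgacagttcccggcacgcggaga
Gars, Iars and Yars were among the 4 cytosolic enzymes with the largest differences with G58R on both OMA1 backgrounds and with S59L on OMA1+/-, while with S59L on OMA1-/- Yars stood at 0.76. Tars did not pass with G58R on OMA1+/- (0.93, adjusted p = 0.0602). Sars (chr3:108445210-108445509, minus strand), the other of those 4 enzymes, is shown for contrast beside Iars2 (chr1:185329352-185329651, minus strand), the mitochondrial partner of Iars, and neither held the motif. The windows of Eprs, Farsa, Farsb, Kars, Mars1 and Qars held no match either. Of these, Eprs and Mars1 rose and passed with G58R on OMA1+/-, while Farsa, Farsb, Kars and Qars did not pass.
Sars: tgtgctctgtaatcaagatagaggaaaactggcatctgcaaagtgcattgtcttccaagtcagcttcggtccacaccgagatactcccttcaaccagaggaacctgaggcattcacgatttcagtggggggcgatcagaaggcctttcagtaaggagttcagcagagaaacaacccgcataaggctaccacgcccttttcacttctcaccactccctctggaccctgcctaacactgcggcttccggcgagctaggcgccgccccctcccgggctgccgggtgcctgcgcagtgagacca
Iars2: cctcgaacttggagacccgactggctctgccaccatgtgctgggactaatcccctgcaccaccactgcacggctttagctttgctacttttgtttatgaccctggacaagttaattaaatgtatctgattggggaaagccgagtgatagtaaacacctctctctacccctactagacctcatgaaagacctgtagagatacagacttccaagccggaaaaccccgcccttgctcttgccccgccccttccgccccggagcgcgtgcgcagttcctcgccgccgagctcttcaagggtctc

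The effect of G58R was first read on the OMA1+/- background. Of 18 cytosolic synthetases 9 rose, 0 fell and 9 did not pass, against 1.98% of all genes called in either direction, 1.51% called higher and 0.472% lower (limma, adjusted p below 0.05 over all genes). All 18 changes were above 0, with a median of 1.09 and a range of 0.08 to 2.29 on the log2 scale, against a median of -0.03 over all genes. In 10 of the 18, the 4 arrays of each group did not overlap, which held for 7.87% of all genes.

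Sars, which charges serine tRNA, was at 13.55, 13.82, 13.92 and 13.01 in C10 G58R OMA1+/- hearts, against 10.76, 11.61, 11.35 and 11.41 in C10 WT OMA1+/- hearts. The lowest mutant heart lay above the highest control, and Sars rose by 2.29 ± 0.23 (SE), or 4.90-fold (adjusted p = 1.66e-05, limma). Iars, for isoleucine, was at 13.03, 12.44, 13.02 and 12.47 in C10 G58R OMA1+/- hearts, against 10.01, 10.85, 10.70 and 10.41 in C10 WT OMA1+/- hearts. It rose by 2.25 ± 0.21, or 4.74-fold (adjusted p = 5.02e-06), again with no overlap. Gars, the glycine enzyme used in both compartments, was at 14.15, 14.58, 14.71 and 14.11 in C10 G58R OMA1+/- hearts, against 11.74, 12.29, 12.12 and 12.69 in C10 WT OMA1+/- hearts. It rose by 2.17 ± 0.23 (adjusted p = 2.72e-05). Yars, for tyrosine, was at 12.14, 11.79, 12.08 and 11.63 in C10 G58R OMA1+/- hearts, against 9.37, 9.48, 9.73 and 10.37 in C10 WT OMA1+/- hearts. It rose by 2.17 ± 0.24 (adjusted p = 4.27e-05), the lowest mutant heart again lying above the highest control. Cars (cysteine, 2.09), Eprs (1.63), Mars1 (methionine, 1.60), Nars (asparagine, 1.47) and Lars (leucine, 1.25) also rose, with no overlap and adjusted p of at most 0.00649. Eprs, a single protein with both the glutamyl and the prolyl activity, was at 15.82, 16.57, 16.46 and 15.75 in C10 G58R OMA1+/- hearts, against 14.65, 14.83, 14.23 and 14.36 in C10 WT OMA1+/- hearts. All 4 mutant hearts thus lay above all 4 controls.

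The other 9 cytosolic enzymes ranged from 0.08 for Qars (glutamine) to 0.93 for Tars (threonine), whose arrays did not overlap although the test was not passed (adjusted p = 0.0602). Qars was at 12.67, 12.79, 12.65 and 12.40 in C10 G58R OMA1+/- hearts, against 12.11, 13.19, 12.74 and 12.17 in C10 WT OMA1+/- hearts. Kars, for lysine and also used in both compartments, was at 12.35, 12.32, 12.32 and 12.09 in C10 G58R OMA1+/- hearts, against 11.64, 12.14, 12.25 and 11.48 in C10 WT OMA1+/- hearts (0.39 ± 0.20, adjusted p = 0.322). Both Qars and Kars thus overlapped between the groups. Rars (arginine) reached 0.68 and Wars (tryptophan) 0.40 with overlapping arrays. Lars, Mars1 and Nars lost their calls when only the arrays of the groups compared were fitted, and Mars1 also with the adipocyte marker mean as a covariate (1.05) and without the 7 hearts of high adipocyte markers (1.09).

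Among mitochondrial synthetases 1 of 16 rose in C10 G58R OMA1+/- hearts, 0 fell and 15 did not pass, against 1.98% of all genes called in either direction. All 16 differences were above 0, with a median of 0.44, and 4 of the 16 did not overlap between groups, against 7.87% of all genes. The member that rose was Mars2, which charges the matrix methionine tRNA, at 7.91, 8.35, 8.41 and 7.90 in C10 G58R OMA1+/- hearts, against 7.37, 7.21, 7.04 and 6.52 in C10 WT OMA1+/- hearts. The difference of 1.11 ± 0.21 passed (adjusted p = 0.00894), but not when only the groups compared were fitted. Rars2 (arginine) reached 1.14 with overlapping arrays (adjusted p = 0.0583), and Yars2 (tyrosine) 0.75 without overlap (adjusted p = 0.0602). The count became 3 when C10 G58R OMA1+/- replicate 4 was left out, and 2 for replicates 1 and 3 of C10 WT OMA1+/- and replicate 2 of C10 WT OMA1-/-. Macrophage and endothelial markers had 0 of 9 and 0 of 7 past the test in this comparison. All 7 endothelial markers were nevertheless lower, with a median of -0.62, and 4 of them had an unadjusted p below 0.05 (limma). Of 7 lymphocyte markers 2 fell and all 7 were lower, with set means of 5.23 to 5.49 in C10 G58R OMA1+/- hearts against 5.73 to 6.75 in C10 WT OMA1+/- hearts, and 6 of the 7 stood under the background in all 4 mutant hearts. Of 6 adipocyte markers 1 fell and all 6 were lower, with set means of 8.50, 8.80, 7.44 and 7.67 in C10 G58R OMA1+/- hearts against 11.50, 12.06, 11.82 and 8.29 in C10 WT OMA1+/- hearts. Without the 7 hearts of high adipocyte markers, and so against 1 remaining control, 8 of the 9 cytosolic calls were kept and Mars1 was lost, while Farsb, Rars and Tars were called as well.

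**Figure D2:**
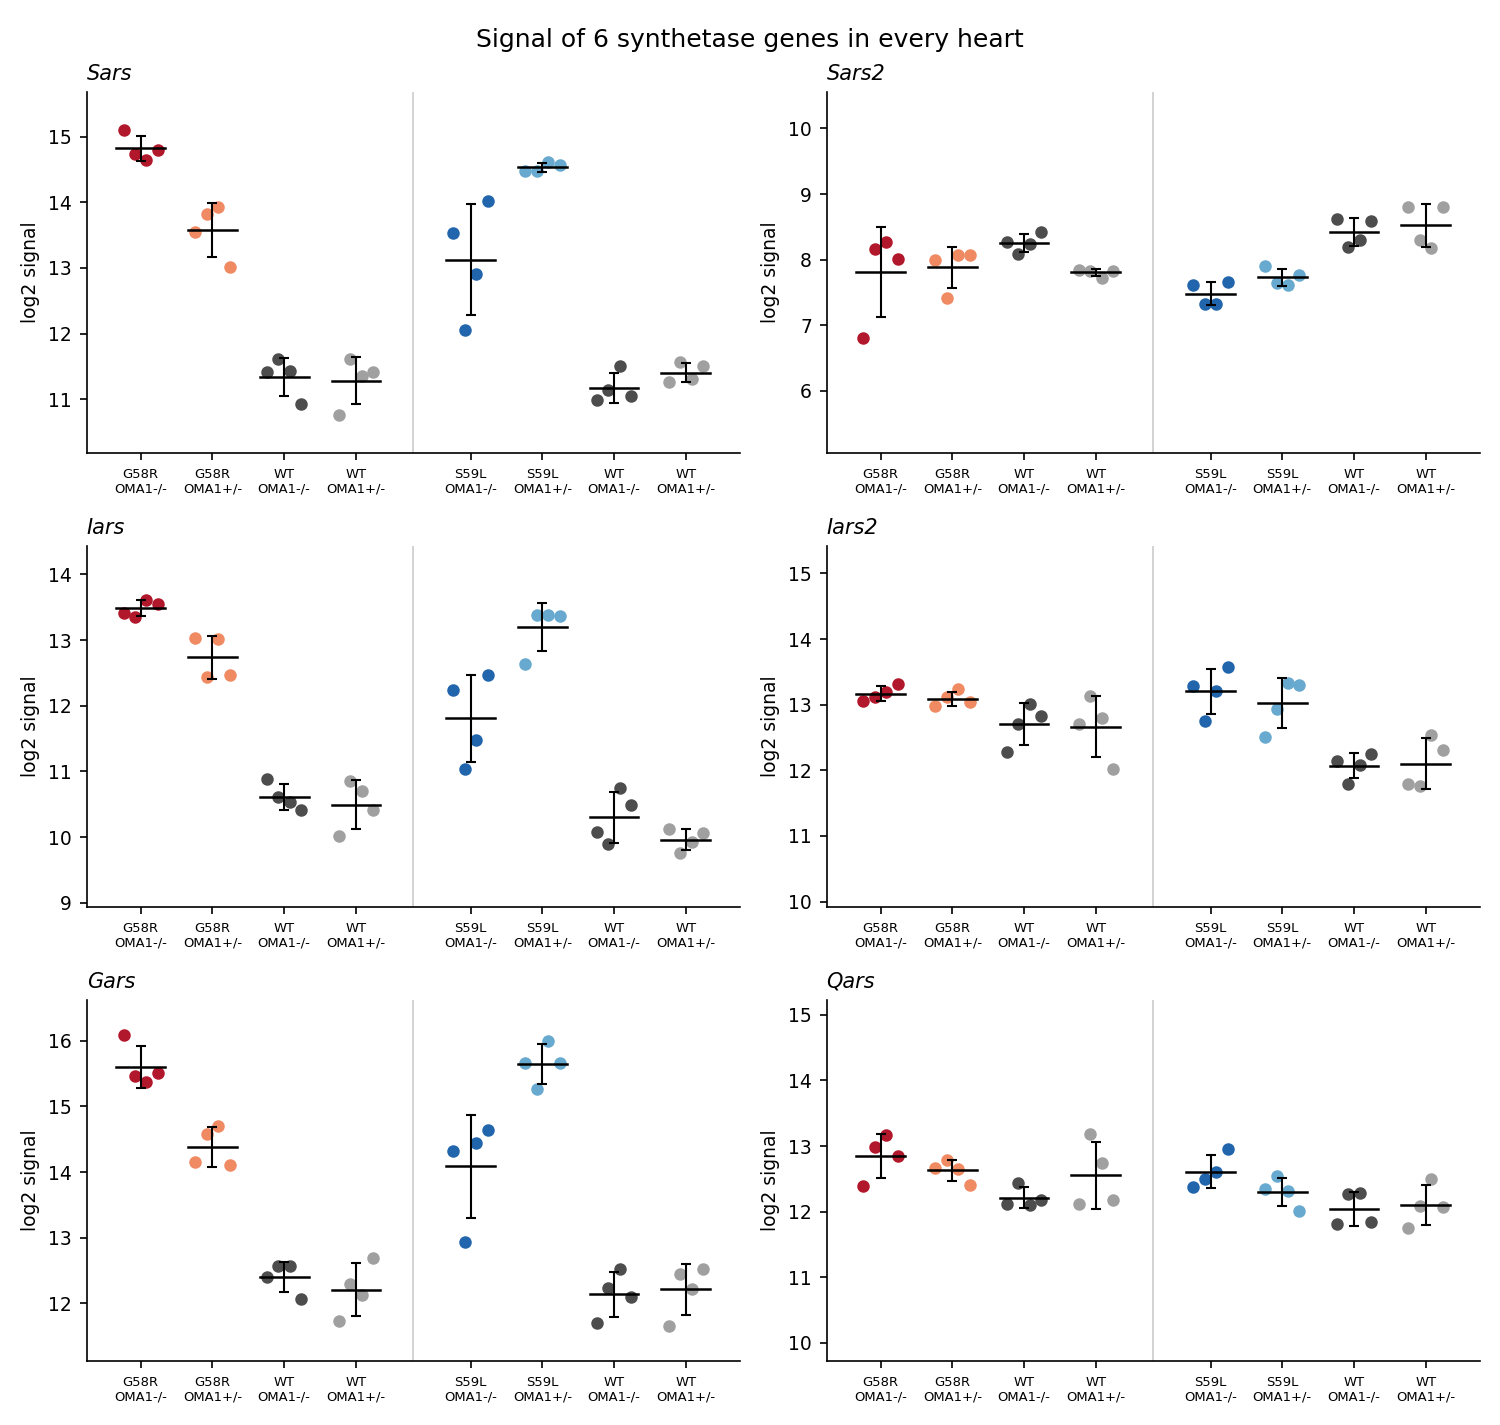
Log2 levels of Sars, Sars2, Iars, Iars2, Gars and Qars in each of the 32 hearts by group, with lines at the means, bars of 1 SD (n = 4) and axes of equal length. Sars, Iars and Gars lie apart from the C10 WT hearts in all 4 mutant groups, Qars differs from the C10 WT means by 0.08 to 0.64, and Sars2 lies lower in the S59L hearts.

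On the OMA1-/- background the rise took in nearly the whole cytosolic set. Of 18 members 16 rose, 0 fell, and Farsa and Vars did not pass, against 33.6% of all genes called in either direction and 18.3% called higher in C10 G58R OMA1-/- hearts compared with C10 WT OMA1-/- hearts. The median was 2.18 and the range 0.50 to 3.48, against a median of -0.10 over all genes, and 15 of 18 did not overlap, against 36.3% of all genes. Sars was at 15.10, 14.74, 14.64 and 14.80 in C10 G58R OMA1-/- hearts, against 11.41, 11.61, 11.43 and 10.92 in C10 WT OMA1-/- hearts. It rose by 3.48 ± 0.23, or 11.1-fold (adjusted p = 1.08e-08). Yars was at 13.09, 12.65, 12.77 and 12.84 in C10 G58R OMA1-/- hearts, against 9.41, 9.59, 10.03 and 9.08 in C10 WT OMA1-/- hearts, and rose 9.94-fold. Gars was at 16.08, 15.46, 15.37 and 15.51 in C10 G58R OMA1-/- hearts, against 12.41, 12.57, 12.56 and 12.07 in C10 WT OMA1-/- hearts, and rose 9.20-fold. For each of these 3 genes the lowest mutant heart lay far above the highest control, with no overlap. Iars (2.88), Eprs (2.85), Cars (2.38), Rars (2.34), Tars (2.34), Nars (2.24), Lars (2.12), Wars (1.59), Farsb (1.55), which encodes the beta subunit of the phenylalanine enzyme, and Mars1 (1.44) followed. The smallest rises were those of Kars (0.93), Qars (0.64, adjusted p = 0.0401, with overlapping arrays) and Hars (histidine, 0.63). Farsa, the alpha subunit, had 0.50 (adjusted p = 0.161) and Vars, for valine, 0.59 (adjusted p = 0.0716).

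Mitochondrial synthetases had 7 members higher, 1 lower and 8 that did not pass in C10 G58R OMA1-/- hearts, against 33.6% of all genes called in either direction, 18.3% higher and 15.3% lower. The median was 0.41, and 7 of 16 did not overlap, a share near the 36.3% of all genes. Mars2 was at 8.19, 8.52, 7.93 and 8.25 in C10 G58R OMA1-/- hearts, against 6.59, 7.06, 6.77 and 6.72 in C10 WT OMA1-/- hearts. It rose by 1.44 ± 0.21 (adjusted p = 6.14e-05), with no overlap. Tars2 (threonine) was at 9.03, 9.22, 9.40 and 9.33 in C10 G58R OMA1-/- hearts, against 7.95, 8.45, 8.45 and 8.25 in C10 WT OMA1-/- hearts, and rose by 0.97 ± 0.19. Rars2 (1.47), Nars2 (asparagine, 0.90), Yars2 (0.80) and Fars2 (phenylalanine, 0.61) rose as well, and only Nars2 overlapped among these. Wars2 was called higher and Aars2, for alanine, lower, but the means of both groups lay below the background (6.53 and 5.66 for Wars2, 5.56 and 6.48 for Aars2), so no change is given for them. Sars2 was at 6.80, 8.17, 8.26 and 8.02 in C10 G58R OMA1-/- hearts, against 8.28, 8.09, 8.24 and 8.42 in C10 WT OMA1-/- hearts, a difference of -0.44 (adjusted p = 0.195) set mainly by replicate 1. Macrophage markers rose in 6 of 9 cases here, with set means of 10.44 to 11.02 in C10 G58R OMA1-/- hearts against 8.48 to 9.70 in C10 WT OMA1-/- hearts, and none of the 9 was below background on all arrays of a group. Endothelial markers fell in 6 of 7 cases, with set means of 10.68 to 11.28 in C10 G58R OMA1-/- hearts against 11.95 to 12.52 in C10 WT OMA1-/- hearts. Cardiomyocyte markers fell in 3 of 7 cases, with set means of 17.63 to 18.15 in C10 G58R OMA1-/- hearts against 18.26 to 18.47 in C10 WT OMA1-/- hearts and no overlap. The part of these cell types in the synthetase values was not tested.

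The effect of S59L was read in the same way at 20 weeks. On the OMA1+/- background 16 of 18 cytosolic synthetases rose, 0 fell, and Farsa and Qars did not pass, against 36.5% of all genes called in either direction and 18.6% called higher. The median was 2.07 and the range 0.17 to 3.44, against a median of -0.15 over all genes, and 16 of 18 did not overlap, against 37.9% of all genes. Gars was at 15.67, 15.27, 15.999 and 15.66 in C10 S59L OMA1+/- hearts, against 11.66, 12.44, 12.22 and 12.53 in C10 WT OMA1+/- hearts. It rose by 3.44 ± 0.32, or 10.8-fold (adjusted p = 5.57e-07). Iars was at 12.64, 13.39, 13.39 and 13.37 in C10 S59L OMA1+/- hearts, against 10.12, 9.75, 9.92 and 10.05 in C10 WT OMA1+/- hearts. It rose 9.42-fold, with replicate 1 below the other mutant hearts. Sars was at 14.48, 14.47, 14.61 and 14.57 in C10 S59L OMA1+/- hearts, against 11.26, 11.56, 11.30 and 11.50 in C10 WT OMA1+/- hearts, and rose 8.73-fold, with an SD over arrays of 0.07 in mutant and 0.15 in control hearts. Yars was at 12.29, 12.60, 12.73 and 12.79 in C10 S59L OMA1+/- hearts, against 9.47, 9.62, 9.62 and 9.75 in C10 WT OMA1+/- hearts, and rose 7.95-fold (adjusted p = 3e-07). Cars (2.98), Eprs (2.78), Lars (2.38), Rars (2.18), Tars (2.07), Nars (2.06), Mars1 (1.85), Farsb (1.77), Wars (1.73), Vars (1.15), Kars (1.14) and Hars (0.78) followed, with adjusted p of at most 0.015. Qars was at 12.35, 12.54, 12.31 and 12.01 in C10 S59L OMA1+/- hearts, against 11.76, 12.09, 12.49 and 12.07 in C10 WT OMA1+/- hearts, a difference of 0.20 (adjusted p = 0.46) with overlapping arrays. The call of Hars was lost after quantile normalization (0.40) and without the 7 hearts of high adipocyte markers (0.66).

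Mitochondrial synthetases were called in both directions with S59L. The share called in either direction was not far from that of all genes, with more members higher than lower on OMA1+/-. On the OMA1+/- background 5 of 16 were higher, 2 lower and 9 did not pass, against 36.5% of all genes called in either direction, 18.6% higher and 17.9% lower. The median was 0.28, and 5 of 16 did not overlap, against 37.9% of all genes. Mars2 was at 7.36, 7.72, 7.72 and 8.02 in C10 S59L OMA1+/- hearts, against 5.94, 6.57, 5.87 and 7.06 in C10 WT OMA1+/- hearts, where 3 of 4 arrays lay below the background. It rose by 1.34 ± 0.35 (adjusted p = 0.00651), and no array overlapped. Rars2 was at 8.52, 8.77, 8.73 and 8.37 in C10 S59L OMA1+/- hearts, against 6.66, 7.84, 7.84 and 6.98 in C10 WT OMA1+/- hearts, and rose by 1.27 without overlap. Tars2 (1.02), Iars2 (isoleucine, 0.92) and Yars2 (0.63, adjusted p = 0.0498) rose too, Iars2 and Yars2 with overlapping arrays. Sars2, the mitochondrial serine enzyme, was at 7.90, 7.65, 7.61 and 7.76 in C10 S59L OMA1+/- hearts, against 8.80, 8.31, 8.18 and 8.81 in C10 WT OMA1+/- hearts. It fell by 0.79 on the log2 scale (SE 0.19, adjusted p = 0.00402), the opposite direction to Sars in the same hearts. Aars2 was called lower, at 5.99, 5.50, 5.59 and 5.46 in C10 S59L OMA1+/- hearts, all below background, against 6.35, 6.73, 6.85 and 6.69 in C10 WT OMA1+/- hearts, so that it was at least 0.06 log2 units lower (adjusted p = 0.00071). Quantile normalization ended the calls of Iars2 (0.48) and Yars2 (0.36).

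With S59L on the OMA1-/- background most cytosolic synthetases rose as well. Of 18 cytosolic synthetases 12 rose, 0 fell and 6 did not pass, against 29.8% of all genes called in either direction and 15.8% called higher, with a median of 0.95 and a range of 0.02 to 1.95, against a median of -0.10 over all genes. In 9 of 18 the arrays did not overlap, against 26.0% of all genes. Sars was at 13.53, 12.05, 12.91 and 14.01 in C10 S59L OMA1-/- hearts, against 10.99, 11.14, 11.50 and 11.05 in C10 WT OMA1-/- hearts. Its rise of 1.95 ± 0.29, or 3.87-fold, passed (adjusted p = 0.000141), and the mutant hearts had an SD over arrays of 0.85, against 0.23 in the controls. Gars was at 14.32, 12.94, 14.45 and 14.64 in C10 S59L OMA1-/- hearts, against 11.70, 12.23, 12.52 and 12.10 in C10 WT OMA1-/- hearts, and rose 3.86-fold. Tars (1.55), Eprs (1.51), Iars (1.51), Rars (1.43), Cars (1.37), Lars (1.15), Nars (1.02), Kars (0.88), Yars (0.76) and Qars (0.56, adjusted p = 0.0468) rose as well. Arrays of Lars, Nars and Yars overlapped those of the controls. Kars was at 11.98, 11.70, 11.83 and 12.51 in C10 S59L OMA1-/- hearts, against 11.16, 10.93, 11.26 and 11.14 in C10 WT OMA1-/- hearts, all 4 mutant hearts above all 4 controls. Farsb, Wars, Hars, Mars1, Vars and Farsa did not pass, at 0.64, 0.66, 0.57, 0.38, 0.15 and 0.02.

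Of 16 mitochondrial synthetases 2 were higher, 3 lower and 11 did not pass in C10 S59L OMA1-/- hearts, against 29.8% of all genes called in either direction, 15.8% higher and 14.0% lower. The median was -0.24, and 4 of 16 did not overlap, against 26.0% of all genes, so that both shares were near those of all genes. Iars2 was at 13.29, 12.75, 13.21 and 13.58 in C10 S59L OMA1-/- hearts, against 12.15, 11.80, 12.09 and 12.25 in C10 WT OMA1-/- hearts. It rose by 1.13 ± 0.24 (adjusted p = 0.00213), and Rars2 by 1.17 with overlapping arrays. Sars2 was at 7.62, 7.33, 7.33 and 7.66 in C10 S59L OMA1-/- hearts, against 8.62, 8.19, 8.30 and 8.59 in C10 WT OMA1-/- hearts. It fell by 0.94 on the log2 scale (SE 0.19, adjusted p = 0.00152), with no overlap. Aars2 and Pars2 (proline) were called lower with the means of both groups below the background, so no change is given. The count of 5 became 3 without C10 WT OMA1-/- replicate 2. Macrophage markers rose in 8 of 9 cases with S59L on each OMA1 background, with set means of 10.53 to 12.34 in C10 S59L OMA1-/- and 11.48 to 12.34 in C10 S59L OMA1+/- hearts, against 9.07 to 9.16 and 8.94 to 9.46 in the C10 WT hearts of those backgrounds. Endothelial markers fell in 4 of 7 cases with S59L on the OMA1-/- background and in 6 of 7 on the OMA1+/- background. Adipocyte markers rose in 3 of 6 cases in C10 S59L OMA1-/- hearts, with set means of 7.71 to 13.90, against 7.21 to 7.44 in C10 WT OMA1-/- hearts. Cardiomyocyte markers fell in 4 of 7 cases with S59L on the OMA1-/- background, with set means of 17.47 to 17.98 in C10 S59L OMA1-/- hearts against 18.17 to 18.48 in C10 WT OMA1-/- hearts. On the OMA1+/- background they fell in 2 of 7 cases, with set means of 17.63 to 17.80 in C10 S59L OMA1+/- hearts against 18.15 to 18.30 in C10 WT OMA1+/- hearts, again without overlap. With the adipocyte marker mean as a covariate, 13 cytosolic and 4 mitochondrial members were called with S59L on OMA1-/-, against 31.7% of all genes. On OMA1+/- 16 and 7 were called, against 40.3% of all genes. The part of the other cell types in the synthetase values was not tested.

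**Figure D3:**
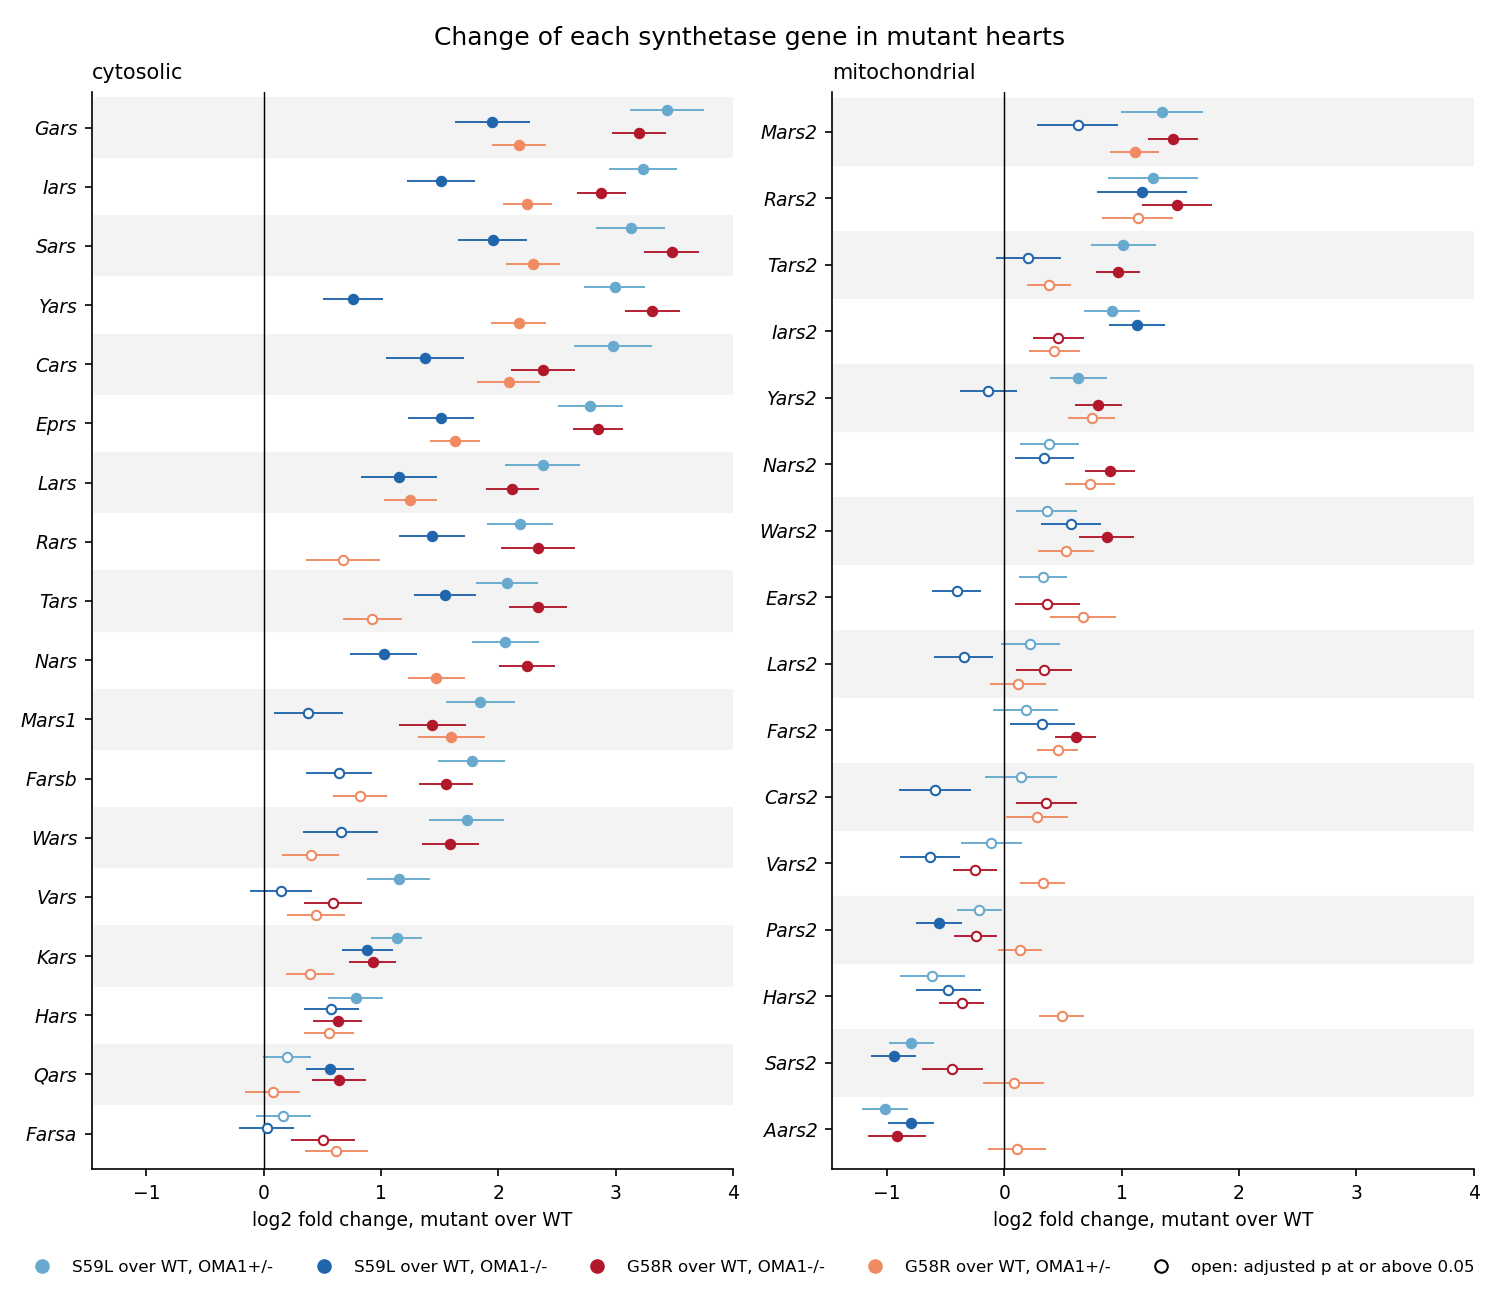
Log2 fold change of each measured synthetase for mutant against C10 WT hearts of the same age and OMA1 background, with bars of 1 SE from limma, 4 arrays per group, and open symbols where the adjusted p was 0.05 or more. Cytosolic members lie right of 0 in all 4 comparisons, up to 3.48 for Sars with G58R on OMA1-/-, while mitochondrial members lie on both sides of 0 in 3 comparisons and right of it with G58R on OMA1+/-.

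Loss of OMA1 was next read within each C10 genotype. In C10 WT hearts 0 of 18 cytosolic and 0 of 16 mitochondrial synthetases were called at either age (limma), against 0.00% of all genes called at 14 weeks and 0.00513% at 20 weeks. Arrays of the OMA1-/- and OMA1+/- groups did not overlap in 0 cytosolic and 2 mitochondrial members at 14 weeks and in 1 and 2 at 20 weeks, against 3.42% and 3.51% of all genes. At an unadjusted p below 0.05 the counts were 1 cytosolic and 3 mitochondrial members at 14 weeks and 0 and 2 at 20 weeks. The cytosolic medians were 0.08 and -0.05, against 0.02 and -0.01 over all genes, and single members ranged from -0.51 to 0.62 at 14 weeks and from -0.42 to 0.46 at 20 weeks. Without C10 WT OMA1+/- replicate 4 at 14 weeks, 1 mitochondrial member was called.

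In G58R hearts the cytosolic set rose further without OMA1. Of 18 members 10 rose, 0 fell and 8 did not pass in C10 G58R OMA1-/- compared with C10 G58R OMA1+/- hearts, against 4.49% of all genes called in either direction and 3.25% called higher. All 18 differences were above 0, with a median of 0.83 and a range of 0.11 to 1.24, against a median of -0.01 over all genes, and 11 of 18 did not overlap, against 11.0% of all genes. These 2 groups also served in the comparisons with C10 WT, so that the values are not independent of those above. Sars, at 14.64 to 15.10 in C10 G58R OMA1-/- hearts against 13.01 to 13.92 in C10 G58R OMA1+/- hearts, rose by 1.24 ± 0.23 (adjusted p = 0.00338). Gars rose by 1.22 ± 0.23 (adjusted p = 0.00366) and Eprs by 1.02 ± 0.21 (adjusted p = 0.00816), and these 3 calls were kept with each array left out. Rars was at 14.34, 13.94, 14.01 and 13.99 in C10 G58R OMA1-/- hearts, against 13.19, 13.36, 12.74 and 12.37 in C10 G58R OMA1+/- hearts. It rose by 1.16 ± 0.31 with no overlap, and its call was lost with 11 of 16 arrays left out in turn. Lars (0.98), Tars (0.97, overlapping), Nars (0.96), Yars (0.93), Wars (0.89) and Iars (0.75, adjusted p = 0.0486) rose, and Mars1 (0.11), Qars (0.22) and Kars (0.26) were the members nearest to 0. Of 16 mitochondrial synthetases 0 were called (limma, and 0 at an unadjusted p below 0.05), with a median of 0.02 and values from -0.43 to 0.39. The count of 10 became 5, 6 or 3 without C10 G58R OMA1+/- replicate 1, 3 or 4 and 3, 6 or 3 without C10 G58R OMA1-/- replicate 1, 3 or 4, and 5 without the 7 hearts of high adipocyte markers.

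In S59L hearts loss of OMA1 went the other way. Of 18 cytosolic synthetases 7 fell, 0 rose and 11 did not pass in C10 S59L OMA1-/- compared with C10 S59L OMA1+/- hearts, against 0.846% of all genes called in either direction and 0.625% called lower. Of the 18 differences 17 were below 0, Qars being the exception at 0.31, with a median of -1.08 against 0.00 over all genes, and 10 of 18 did not overlap, against 5.27% of all genes. Yars was at 11.15, 10.18, 10.39 and 11.60 in C10 S59L OMA1-/- hearts, against 12.29, 12.60, 12.73 and 12.79 in C10 S59L OMA1+/- hearts. It fell by 1.77 on the log2 scale (SE 0.26, adjusted p = 0.00214), with a call kept with each array left out. Eprs was at 15.57, 14.63, 15.85 and 16.30 in C10 S59L OMA1-/- hearts, against 16.59, 16.77, 17.27 and 17.24 in C10 S59L OMA1+/- hearts, again without overlap. Gars (-1.56, adjusted p = 0.0272), Cars (-1.502), Mars1 (-1.41, overlapping), Sars (-1.41), Iars (-1.39) and Eprs (-1.38) fell as well. Sars was at 12.05 in replicate 2 and 14.01 in replicate 4 of C10 S59L OMA1-/-, the ends of its range, and all 4 lay below the lowest C10 S59L OMA1+/- heart at 14.47. Lars (-1.20), Nars (-1.15), Rars (-1.02) and Farsb (-1.004) did not overlap either but did not pass, and Kars (-0.30), Hars (-0.32) and Farsa (-0.28) were near 0. Mitochondrial synthetases had 0 of 16 called (limma, 3 at an unadjusted p below 0.05) with a median of -0.28, the lowest being Tars2 (-0.93) and Yars2 (-0.91). Without C10 S59L OMA1-/- replicate 1 or 4, 1 was called.

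These S59L counts were sensitive to single hearts. The 7 calls became 13 without C10 S59L OMA1-/- replicate 4, 4 or 3 without its replicate 2 or 3, and 4, 4, 1 or 1 without C10 S59L OMA1+/- replicate 1, 2, 3 or 4. They became 0 when the fit held no other groups, 3 without the 7 hearts of high adipocyte markers and 6 with the adipocyte marker mean as a covariate. Of all genes 0.0718%, 1.63% and 1.17% were called in these fits in that order, against the 0.846% above. Atf4, at 14.44, 13.29, 13.16 and 15.18 in C10 S59L OMA1-/- hearts against 15.63, 15.63, 15.89 and 15.89 in C10 S59L OMA1+/- hearts, fell by 1.74 on the log2 scale (adjusted p = 0.0202), and replicates 1 and 4, with the higher Atf4, also had the higher cytosolic set means of 1.24 and 1.56. In C10 G58R OMA1-/- hearts Atf4 was at 15.52, 14.62, 14.74 and 15.51 against 14.21, 15.13, 14.82 and 14.35 in C10 G58R OMA1+/- hearts, with overlapping arrays. Of 9 macrophage markers 1 fell and 8 did not pass between the S59L groups, and adipocyte markers did not pass, at 12.47, 13.90, 7.71 and 7.85 in C10 S59L OMA1-/- hearts against 12.35, 7.19, 6.53 and 8.66 in C10 S59L OMA1+/- hearts. Replicate 2 of C10 S59L OMA1-/-, lowest in the cytosolic set mean at 0.37, was also the highest of all 32 hearts in adipocyte, lymphocyte (8.11) and mesothelial (9.38) markers. Beyond the 2 settings for adipocyte markers above, the part of these cell types in the synthetase values was not tested.

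Tests of the differences between effects were made directly. The interaction of G58R with OMA1 loss was positive and passed for 3 of 18 cytosolic members, Rars (1.66 ± 0.44, adjusted p = 0.0475), Tars (1.41 ± 0.35, adjusted p = 0.0344) and Eprs (1.21 ± 0.30, adjusted p = 0.0338), against 3.13% of all genes in either direction and 2.24% positive. All 3 calls were lost with the adipocyte marker mean as a covariate (0.83, 0.92 and 1.13, adjusted p of 0.642, 0.515 and 0.305 in that order) and without the 7 hearts of high adipocyte markers (0.63, 0.84 and 1.07), of which 3 are C10 WT OMA1+/- hearts of this comparison. With the adipocyte marker mean as a covariate 0.272% of all genes passed for this interaction in either direction, against 3.13% without it. The cytosolic median of the interaction was 0.75, against -0.03 over all genes, and 0 of 16 mitochondrial members passed (4 at an unadjusted p below 0.05) with a median of 0.07. For Rars the C10 WT side moved too, at 11.56, 11.72, 11.92 and 11.72 in C10 WT OMA1-/- hearts, against 13.26, 12.52, 11.87 and 11.29 in C10 WT OMA1+/- hearts, a wide spread that overlapped. For Tars the values were 12.91, 12.30, 11.73 and 12.46 in C10 G58R OMA1-/- hearts, against 11.11, 11.88, 11.43 and 11.09 in C10 G58R OMA1+/- hearts, and 10.07, 10.03, 10.17 and 9.79 in C10 WT OMA1-/- hearts, against 10.87, 10.57, 10.30 and 10.06 in C10 WT OMA1+/- hearts. Tars thus lay higher without OMA1 in most mutant hearts and lower without it in most C10 WT hearts. Leaving out 1 array at a time took the 3 calls to 0 for replicates 1, 2 and 4 of C10 G58R OMA1-/-, replicates 1 and 4 of C10 G58R OMA1+/-, replicates 1, 2 and 4 of C10 WT OMA1-/- and replicate 2 of C10 WT OMA1+/-. They went to 1 for replicate 3 of C10 G58R OMA1+/- and of C10 WT OMA1+/-, and to 6 for replicate 4 of C10 WT OMA1+/-, where 2 mitochondrial members were called as well. The interaction of S59L with OMA1 loss passed for 1 cytosolic member, Yars (-2.23 ± 0.36, adjusted p = 0.0233), against 0.0718% of all genes in either direction, 0.0513% negative and 0.0205% positive, with a median of -1.10, against 0.01 over all genes, and 12 of 18 at an unadjusted p below 0.05. That call was lost without any of replicates 1 to 4 of C10 WT OMA1+/-, replicate 3 or 4 of C10 WT OMA1-/-, replicate 2, 3 or 4 of C10 S59L OMA1+/- or replicate 3 of C10 S59L OMA1-/-. For Yars, the mean was 10.83 in C10 S59L OMA1-/- and 12.60 in C10 S59L OMA1+/- hearts, while among C10 WT hearts it was 10.07 in the OMA1-/- and 9.61 in the OMA1+/- group.

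The effect of OMA1 loss differed between the mutations in 14 of 18 cytosolic synthetases, all more positive in G58R than in S59L hearts, against 4.91% of all genes in either direction, 3.66% in this one and 1.26% in the other. The median difference was 2.02, against -0.02 over all genes. Gars differed by 2.78 ± 0.40 (adjusted p = 3.55e-05), Yars by 2.70 ± 0.35 (adjusted p = 9.01e-06), Sars by 2.65 ± 0.38 (adjusted p = 3.51e-05) and Eprs by 2.40 ± 0.35 (adjusted p = 4.48e-05). Cars, Lars, Rars, Iars, Nars, Tars, Wars, Vars, Mars1 and Farsb differed by 1.44 to 2.26, and Qars (-0.08), Kars (0.56), Hars (0.63) and Farsa (0.72) did not pass. With each of the 32 arrays left out the count stayed between 12 and 14. Of 16 mitochondrial synthetases Tars2 alone passed (1.32 ± 0.33, adjusted p = 0.0144), at 9.03, 9.22, 9.40 and 9.33 in C10 G58R OMA1-/- hearts, against 9.14, 8.52, 9.002 and 8.75 in C10 G58R OMA1+/- hearts, and at 8.25, 7.62, 7.94 and 9.06 in C10 S59L OMA1-/- hearts, against 8.82, 9.14, 9.51 and 9.12 in C10 S59L OMA1+/- hearts. Its arrays overlapped in both mutants, and its call was lost without the 7 hearts of high adipocyte markers (1.22, adjusted p = 0.088). The count became 2 without C10 S59L OMA1+/- replicate 2 or C10 S59L OMA1-/- replicate 1 or 4. The groups compared differ in age as well as in mutation.

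**Figure D4:**
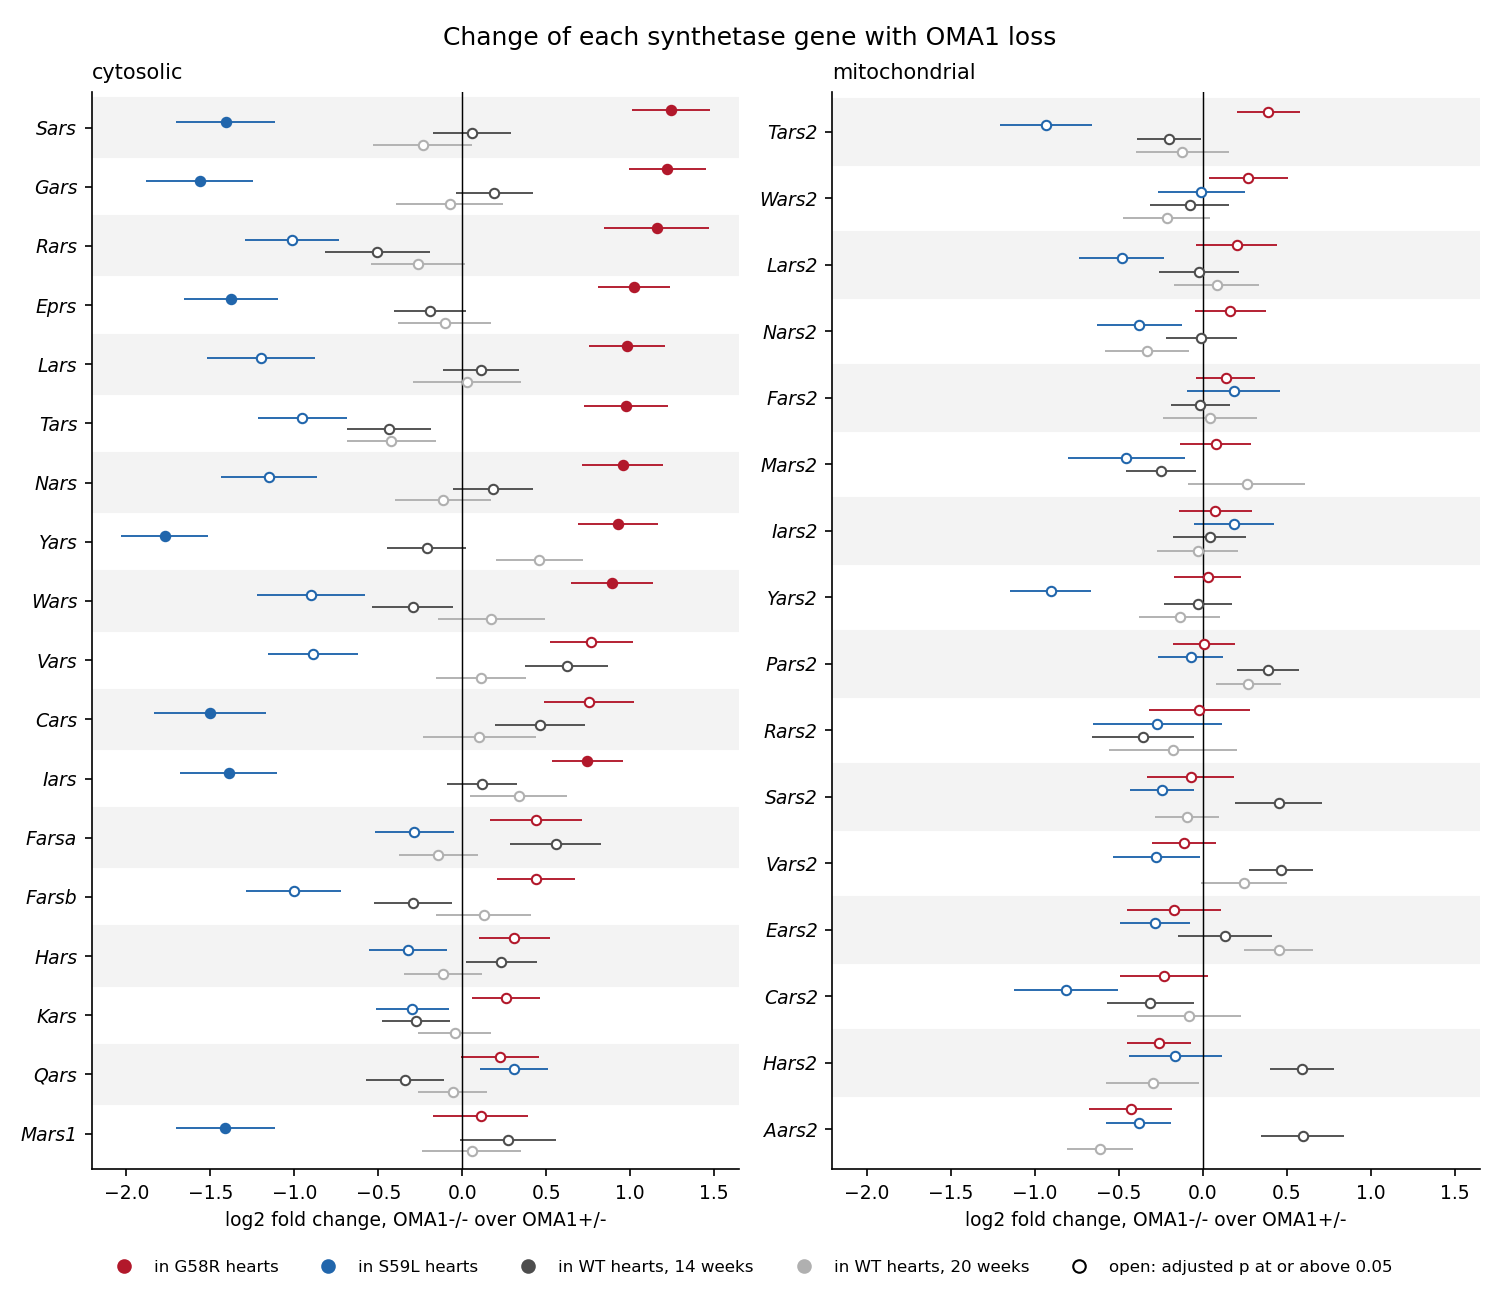
Log2 fold change of each measured synthetase for OMA1-/- against OMA1+/- hearts in G58R, S59L and the C10 WT hearts of each age, with bars of 1 SE from limma, 4 arrays per group, and open symbols where the adjusted p was 0.05 or more. Cytosolic members lie right of 0 in G58R (0.11 to 1.24), left of 0 in S59L except Qars (0.31), and around 0 in C10 WT hearts.

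On the OMA1+/- background the G58R effect at 14 weeks was smaller than the S59L effect at 20 weeks in 5 of 18 cytosolic synthetases, against 8.33% of all genes in either direction and 5.30% in this one. These were Rars (-1.51 ± 0.43), Wars (-1.33 ± 0.41), Gars (-1.26 ± 0.40), Eprs (-1.15 ± 0.35) and Tars (-1.15 ± 0.37), with adjusted p between 0.0271 and 0.0482. The median was -0.86, against 0.08 over all genes, and Farsa was the only cytosolic member above 0 (0.45, not passed). Of the mitochondrial set Hars2 (histidine, 1.10 ± 0.33, adjusted p = 0.0364) was more positive with G58R, against 3.03% of all genes. Hars2 was at 7.83, 7.78, 8.08 and 7.89 in C10 G58R OMA1+/- hearts, against 7.42, 6.99, 7.58 and 7.62 in C10 WT OMA1+/- hearts at 14 weeks, and at 7.47, 7.45, 7.65 and 7.05 in C10 S59L OMA1+/- hearts, against 8.49, 8.24, 7.91 and 7.42 in C10 WT OMA1+/- hearts at 20 weeks. Neither effect passed on its own, and the call of Hars2 was lost with the adipocyte marker mean as a covariate (1.18) and without the 7 hearts of high adipocyte markers (0.90). Aars2 was also called (fitted value 1.13, adjusted p = 0.0214), with 3 of the 4 groups below the background on all arrays, so that its size is neither a measured change nor a bound. The cytosolic count of 5 ranged from 0 to 7 with an array left out, and was 1 after quantile normalization and 1 without the 7 hearts of high adipocyte markers. Of the 14-week arrays, it was 0 when C10 G58R OMA1+/- replicate 4 was left out and 1 when replicate 1 of that group was. It was 0 for C10 WT OMA1+/- replicate 2 and 2 for its replicates 1 and 3, and 3 for C10 G58R OMA1+/- replicate 3, C10 G58R OMA1-/- replicates 2 and 4 and C10 WT OMA1-/- replicates 1, 2 and 3. Of the 20-week arrays, it was 0 for C10 S59L OMA1+/- replicate 4 and C10 WT OMA1+/- replicate 1, 1 for replicate 3 of each of these groups, and 3 for C10 WT OMA1-/- replicate 4. The mitochondrial count of 2 became 1 for replicates 1, 3 and 4 of C10 G58R OMA1+/-, replicates 1, 2 and 3 of its C10 WT OMA1+/- controls, replicates 2 and 4 of C10 S59L OMA1+/- and replicates 1 and 2 of its C10 WT OMA1+/- controls.

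Within the cytosolic set, the members of the multisynthetase complex and the free enzymes moved in the same directions. With G58R on OMA1+/-, 4 of 7 measured complex members rose (median 1.25) and 5 of 11 others (median 0.93), against 1.51% of all genes called higher. On OMA1-/- the counts were 7 of 7 (median 2.12) and 9 of 11 (median 2.24), against 18.3% of all genes. With S59L on OMA1+/- 6 of 7 complex members rose (median 2.18) and 10 of 11 others (median 2.06), and on OMA1-/- 6 of 7 (median 1.15) and 6 of 11 (median 0.76), against 18.6% and 15.8% of all genes called higher. The fall without OMA1 in S59L hearts was called in 3 of 7 complex members (median -1.20) and 4 of 11 others (median -1.004), against 0.625% of all genes called lower. Both ends of the range were in each part, with Iars and Eprs high and Qars and Kars low among complex members, and Sars and Gars high and Farsa low among the others. No test was made between the 2 parts.

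The same amino acid was compared across compartments in 12 pairs of a cytosolic and a mitochondrial enzyme. The change of the cytosolic member was above that of its partner in 10 of 12 pairs for G58R on OMA1+/-, in 12 of 12 on OMA1-/-, in 12 of 12 for S59L on OMA1+/- and in 11 of 12 on OMA1-/-. It was above in 12 of 12 pairs for OMA1 loss in G58R hearts and below in 12 of 12 for OMA1 loss in S59L hearts. All counts of pairs here include tryptophan, whose mitochondrial enzyme Wars2 lay below the background on 28 of 32 arrays. Tryptophan and arginine were the pairs that went the other way with G58R on OMA1+/-. Over the 72 tests (exact permutation of arrays, two-sided) the smallest possible p was 0.0286 and the smallest adjusted p obtained was 0.0571, so that 0 pairs passed. That smallest p was reached in 3, 9, 11 and 5 pairs for the mutations in the order given, and in 4 pairs for OMA1 loss in each mutant. Serine had the widest gap in all 4 mutation comparisons, with 3.48 for Sars and -0.44 for Sars2 with G58R on OMA1-/- and 3.13 and -0.79 with S59L on OMA1+/-. Methionine had the narrowest with G58R on OMA1-/-, at 1.44 for both Mars1 and Mars2, and with S59L on OMA1+/-, at 1.85 for Mars1 and 1.34 for Mars2. Histidine had the narrowest with G58R on OMA1+/- (0.56 for Hars and 0.49 for Hars2). With S59L on OMA1-/- the narrowest fitted gap was that of tryptophan. The Wars2 means of both groups lay below the background there (6.05 and 5.48), so no size is given for it. In the same comparison Mars2 lay above Mars1 (0.62 and 0.38). For isoleucine, Iars fell by 1.39 without OMA1 in S59L hearts on the log2 scale and Iars2 stood at 0.19, from 13.29, 12.75, 13.21 and 13.58 in C10 S59L OMA1-/- hearts against 12.51, 12.94, 13.33 and 13.30 in C10 S59L OMA1+/- hearts. For leucine, Lars was at 12.21, 11.94, 11.95 and 12.35 in C10 G58R OMA1-/- hearts, against 9.76, 10.15, 10.0002 and 10.06 in C10 WT OMA1-/- hearts, while Lars2 was at 8.54, 9.05, 9.26 and 8.68 in C10 G58R OMA1-/- hearts, against 8.24, 8.81, 8.67 and 8.45 in C10 WT OMA1-/- hearts. With S59L on OMA1+/-, Lars was at 11.67, 11.94, 12.27 and 12.07 in mutant hearts, against 9.30, 9.54, 9.64 and 9.97 in C10 WT hearts, and Lars2 was at 8.66, 8.95, 8.69 and 8.25 in mutant hearts, against 7.95, 8.50, 8.63 and 8.58 in C10 WT hearts. Lars was thus separate from its controls in both cases and Lars2 overlapped them in both. Lars2 stood between -0.48 and 0.34 in all 4 mutation and both OMA1 comparisons in mutants, while Lars ranged from -1.20 to 2.38. For tryptophan, Wars was at 11.05, 10.58, 10.76 and 11.10 in C10 G58R OMA1-/- hearts, against 9.20, 9.68, 8.89 and 9.37 in C10 WT OMA1-/- hearts, and at 10.85, 10.70, 10.92 and 10.94 in C10 S59L OMA1+/- hearts, against 8.59, 9.45, 9.09 and 9.35 in C10 WT OMA1+/- hearts. Wars2 lay at or below the background on most arrays, so that its difference from Wars cannot be sized.

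**Figure D5:**
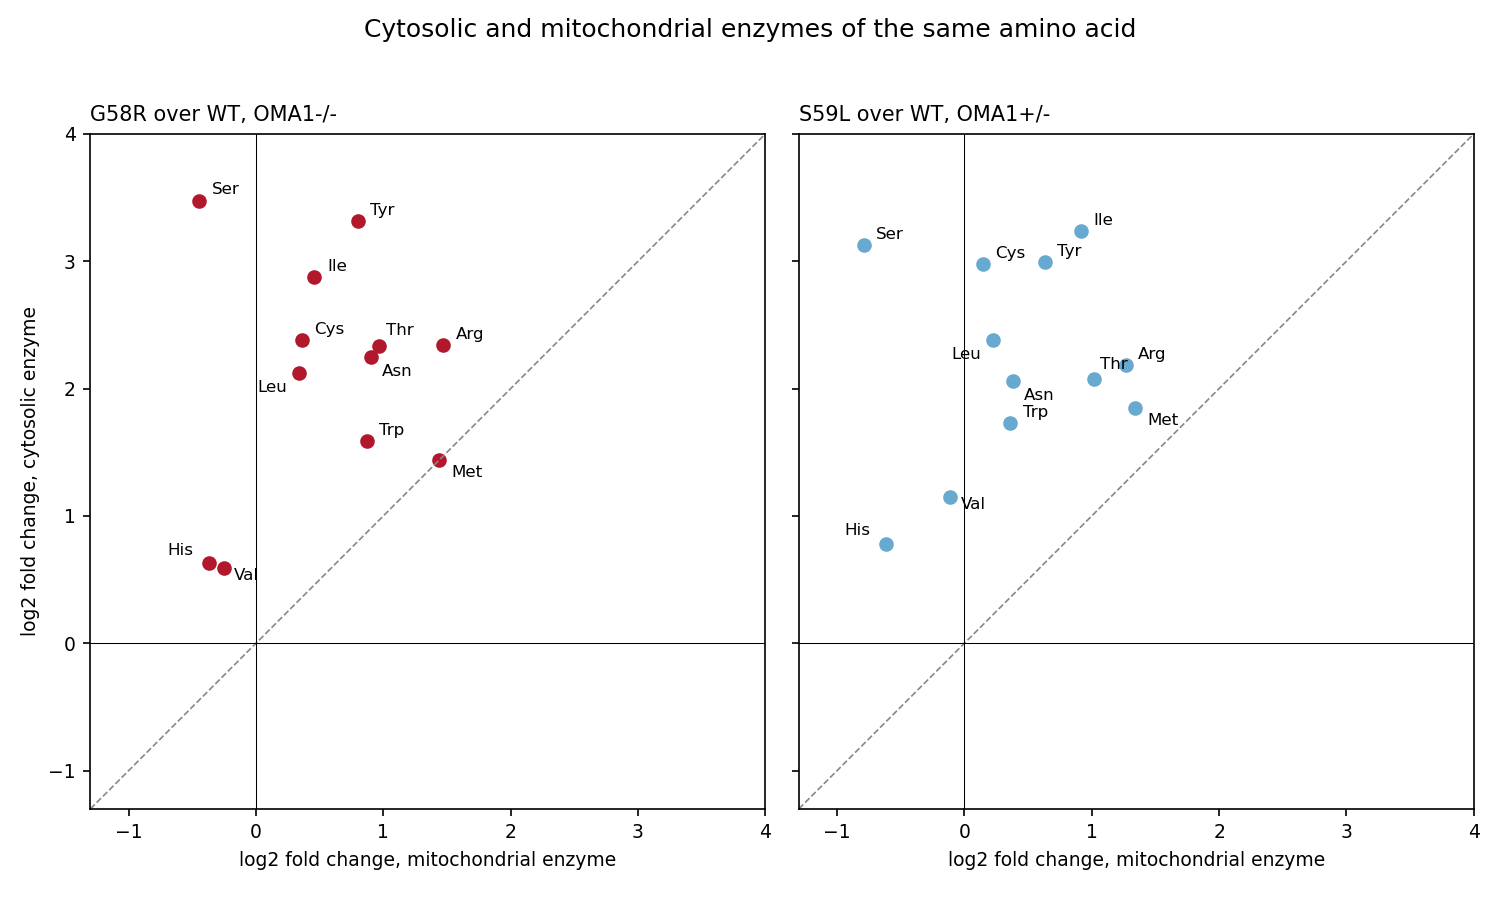
Log2 fold change of the cytosolic enzyme (vertical axis) against that of the mitochondrial enzyme (horizontal axis) for 12 amino acids, 1 point each, for G58R on OMA1-/- (left) and S59L on OMA1+/- (right), with equal changes on the dashed line. Points lie above the line, farthest for serine, with methionine on it for G58R, where both enzymes changed by 1.44. The tryptophan points rest on Wars2 group means below the background, so that their horizontal place is not a measured change.

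Genes that work beside the synthetases were read from lists of related pathways. Of 6 measured partners and quality factors, 0 passed with G58R on OMA1+/-, 3 rose on OMA1-/-, 3 rose with S59L on OMA1+/- and 2 on OMA1-/-, and 0 fell. Over all genes 1.51%, 18.3%, 18.6% and 15.8% were called higher in these 4 comparisons. Eef1e1, which encodes AIMP3, changed most, at 3.07 with G58R on OMA1-/- (adjusted p = 4.85e-06), 3.05 with S59L on OMA1+/- and 1.38 with S59L on OMA1-/-, and the effect of OMA1 loss on it differed between the mutations by 2.38 (adjusted p = 0.00529). Aimp1 rose by 1.35 and Aimp2 by 1.10 with G58R on OMA1-/-. Of 18 genes that charge, modify or process mitochondrial tRNAs, 0 passed with G58R on OMA1+/-, 9 rose on OMA1-/-, 6 rose with S59L on OMA1+/- and 5 rose and 1 fell on OMA1-/-. Over all genes 1.98%, 33.6%, 36.5% and 29.8% were called in either direction in the same order, and 1.51%, 18.3%, 18.6% and 15.8% were called higher. The S59L counts were thus near the share of all genes called in either direction, but the rises were above the share called higher. Gatc, a subunit of the amidotransferase that makes glutaminyl-tRNA in the matrix in place of a glutamine enzyme, rose by 2.22, 2.02 and 1.77 in these 3 comparisons. Trnt1, which adds the CCA end to tRNAs, rose by 1.89, 1.25 and 1.14. Of 10 elongation factors, which carry charged tRNA to the ribosome, 0 passed with G58R on OMA1+/-, and 3 rose and 1 fell on OMA1-/-. With S59L, 4 rose and 2 fell on OMA1+/-, and 2 rose and 3 fell on OMA1-/-, against the same shares of all genes. Eef1a2, the form of muscle and nerve, fell, at -1.56, -1.17 and -2.22 in the last 3 comparisons in that order, while Eef1a1 rose by 0.58, 0.72 and 0.74. Tufm, the mitochondrial counterpart, fell, at -0.83 with S59L on OMA1+/- and -1.75 on OMA1-/-. Of the 4 genes of selenocysteine charging, 0 passed with G58R on OMA1+/-, and 2 rose and 1 fell (-0.90) on OMA1-/-. With S59L, 2 rose on OMA1+/- and 1 fell (-1.18) on OMA1-/-, against the same shares of all genes. Among these Eefsec rose by 1.14 with G58R on OMA1-/- and by 1.36 with S59L on OMA1+/-. Asns, which makes asparagine and is a target of ATF4, rose by 5.19 with G58R on OMA1+/-, 7.66 on OMA1-/-, 6.82 with S59L on OMA1+/- and 5.48 on OMA1-/-, and Atf4 by 2.16, 2.40, 3.72 and 1.67.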

How the data were processed

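Total RNA of 32 mouse hearts was labelled with biotin and hybridised to Clariom S arrays, with 4 animals per group. The values analysed are log2 probe set levels as deposited by the authors, made with the Transcriptome Analysis Console (SST-RMA, which adjusts for GC content and background, normalizes and summarises probes). The sources used here do not say whether the 32 arrays were normalized together. Of 28846 probe sets 6640 controls were left out, and 19572 named 1 gene symbol. For each gene the probe set of highest mean was kept, which left 19505 genes. Each age was fitted separately with limma 3.58.1 (lmFit and eBayes, R 4.3.3), 1 coefficient per group and 16 arrays per fit. The comparisons between the mutations used all 32 arrays in 1 fit. P-values were adjusted over all genes (Benjamini-Hochberg) and called below 0.05. The number of arrays limits the precision, and SDs are over 4 animals. Differences of changes between paired enzymes used exact permutation of arrays. The model was tested on simulated data.

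The background was the 95th percentile of 1412 receptor genes. Where all arrays of 1 group lay below it, only a bound is given, namely the mean of the other group minus the background. No change is given where both group means lay below. The members and lists were chosen with earlier results of these data known. Array values are given for the members of smallest p in each comparison, for any member called against the direction of its set, and for Gars, Kars, Qars, Eprs and the serine, isoleucine, leucine and tryptophan pairs. Values of other members are given by counts, range and change. Alternatives were sex or the adipocyte marker mean as a covariate, quantile normalization, genes above background only, a replicate block, all arrays in 1 fit, the groups compared only, and each array left out. A fit without the 7 hearts of high adipocyte markers was added after seeing the data. Promoter windows are from RefSeq (GRCm38.p6) and were found for 25 members.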

Additional observations from a re-analysis of the deposited data

Results flagged for a closer look

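Single hearts stood far from the other 3 of their group in 9 of 184 groups of 4 values examined, and chance gives about 1 in 20. Sars2 was 6.80 in C10 G58R OMA1-/- replicate 1 (others 8.02 to 8.26) and 7.41 in C10 G58R OMA1+/- replicate 2 (others 7.99 to 8.07). The mitochondrial set mean was 0.33 in the same C10 G58R OMA1-/- replicate 1, the one heart of its group with high adipocyte markers (others 0.52 to 0.55). Iars was 12.64 in C10 S59L OMA1+/- replicate 1, also a heart of high adipocyte markers (others 13.37 to 13.39). Hars2 was 6.57 in C10 S59L OMA1-/- replicate 3, just below the background (others 7.40 to 7.50). Kars was low in 1 heart of 3 groups, at 12.09 in C10 G58R OMA1+/- replicate 4 (others 12.32 to 12.35), 11.15 in C10 WT OMA1-/- replicate 1 at 14 weeks (others 11.73 to 11.79) and 10.53 in C10 WT OMA1+/- replicate 1 at 20 weeks (others 11.35 to 11.41). Lars was 9.28 in C10 WT OMA1-/- replicate 2 at 20 weeks (others 9.71 to 9.79).

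Tests of a difference between 2 effects passed for 26 members in all 4 kinds of difference, counting a member once for each. The effect of OMA1 loss in G58R minus that in C10 WT hearts was 1.66 for Rars, 1.41 for Tars and 1.21 for Eprs on the log2 scale. The effect of OMA1 loss in S59L minus that in C10 WT hearts was -2.23 for Yars. The G58R effect minus the S59L effect on OMA1+/- was -1.51 for Rars, -1.33 for Wars, -1.26 for Gars, -1.15 for Eprs, -1.15 for Tars, 1.10 for Hars2 and, as a fitted value with 3 groups below the background, 1.13 for Aars2. The effect of OMA1 loss in G58R minus that in S59L was 2.78 for Gars, 2.70 for Yars, 2.65 for Sars, 2.40 for Eprs, 2.26 for Cars, 2.18 for Lars, 2.17 for Rars, 2.14 for Iars, 2.11 for Nars, 1.92 for Tars, 1.79 for Wars, 1.66 for Vars, 1.52 for Mars1, 1.44 for Farsb and 1.32 for Tars2. The same difference for Atf4 was 2.21 (adjusted p = 0.00137, limma).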

How the results depend on the processing

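Over 117 called member changes, 882 fits under other settings kept the call in 792, lost it in 90 and reversed it in 0, and 2224 fits with an array left out kept it in 1963, lost it in 261 and reversed it in 0. The counts below moved by over 1.5 times, and the cause was not tested. In fits that held no groups but those compared, the cytosolic fall without OMA1 in S59L went to 0 calls of 7, mitochondrial calls with G58R on OMA1+/- to 0 of 1 and with S59L on OMA1-/- to 3 of 5, and calls over all genes with G58R on OMA1+/- to 63, against 387. Calls over all genes for OMA1 loss in S59L went to 14 in such a fit, against 165. With the adipocyte marker mean as a covariate, the cytosolic G58R by OMA1 interaction went to 0 calls of 3, mitochondrial calls with G58R on OMA1+/- to 2, the mitochondrial difference between mutations to 0 of 2, and calls over all genes with G58R on OMA1+/- to 2145. Calls over all genes for the G58R by OMA1 interaction went to 53 with this covariate, against 610. Without the 7 hearts of high adipocyte markers, which leaves 1 C10 WT OMA1+/- heart at 14 weeks assumed to vary like the others, the cytosolic counts were 5 for OMA1 loss in G58R, 3 for OMA1 loss in S59L, 0 for the G58R and 3 for the S59L interaction and 1 for the difference between mutations. The mitochondrial counts were 3 with G58R on OMA1+/-, 0 for the difference between mutations and 0 for that between OMA1 effects, and 2515 genes were called with G58R on OMA1+/-. With genes above background only, the cytosolic G58R interaction gave 5, and mitochondrial counts were 3 with G58R on OMA1+/-, 3 with S59L on OMA1-/- and 1 for the difference between mutations. Quantile normalization gave 1 cytosolic call for the difference between mutations and 3 mitochondrial calls with S59L on OMA1-/-, and moved the median of all genes to -0.03 with S59L on OMA1+/- and to 0.00 with G58R on OMA1-/-. With all 32 arrays in 1 fit, OMA1 loss in S59L gave 2 mitochondrial calls and the S59L interaction 2 cytosolic calls. Sex as a covariate gave 3 cytosolic calls for the difference between mutations. Replicate numbers did not pair the hearts (correlations of -0.384 to 0.332 over 48 same-numbered pairs, 17 of them above 0.1), and a replicate block gave 2 mitochondrial calls with G58R on OMA1+/- and moved no other count by over 1.5 times.

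With each array left out, cytosolic counts ranged from 3 to 10 for OMA1 loss in G58R, 1 to 13 for OMA1 loss in S59L, 0 to 6 for the G58R and 0 to 1 for the S59L interaction, 0 to 7 for the difference between mutations and 12 to 14 for that between OMA1 effects. Mitochondrial counts ranged from 1 to 3 with G58R on OMA1+/-, 3 to 5 with S59L on OMA1-/-, 0 to 1 for OMA1 loss in C10 WT at 14 weeks, 0 to 1 for OMA1 loss in S59L, 0 to 2 for the G58R interaction, 1 to 3 for the difference between mutations and 1 to 2 for that between OMA1 effects. Ears2, Pars2, Wars2 and Aars2 were too near the background for their changes to be sized.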
